A study of Mus musculus with 12 samples.

Results

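Tumours grown from 2 mouse mammary carcinoma lines, 4T1 and 168FARN, were compared on 6 of the 12 exon arrays of the study, 3 arrays per line, taken by the line that each array's title names. The 4T1 group came from 13 female BALB/c mice and the 168FARN group from 11, all 3 months old, with cells injected into the fourth mammary fat pad. Tumours were removed once their average size in a group was 1 to 2 cm, and 67NR and 4T07 tumours, with 3 arrays each, made up the remaining 6 arrays. Each group stands for 1 derived line, and the labels name no other allele or agent. All hosts were of 1 inbred strain, so a difference between the lines and a difference in metastatic behaviour cannot be told apart. Nothing in the labels ties an array to its own mouse, and the p-values therefore refer to the spread among these arrays, part or all of which may be technical.

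Both lines descend from 1 spontaneous mammary tumour of a BALB/c mouse. From general knowledge of this model, 168FARN cells leave the fat pad and reach the draining lymph nodes but do not found metastases further on, whereas 4T1 cells colonise lung, liver and bone. Carcinoma cells that invade are known to move along an epithelial to mesenchymal axis. Cadherin-based junctions and keratins mark its epithelial end, and repressors of the Zeb, Snail and Twist families mark its mesenchymal end. A tumour sampled whole also holds fibroblasts, vessels, leukocytes and the tissue it grew into, and with bulk RNA fewer cells of a type and less RNA per cell cannot be told apart.

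A gene's level is the median log2 signal of its probesets, and 15025 genes had at least 3 probesets. Levels under 5.08, the 95th percentile of 331 olfactory receptor genes, were treated as background, and a fold change against such a level is given as a lower bound. Across genes, arrays correlated at 0.987 to 0.989 within 4T1 and at 0.979 to 0.983 within 168FARN, against 0.925 to 0.936 between the lines. Skeletal muscle genes were high on 168FARN arrays 2 and 3 and not on array 1, so list counts that move by over 1.5 times with array 1 as the only 168FARN array are given both ways. With that array alone 1053 genes were higher and 1417 lower over all genes. With an adjusted p under 0.05 in limma, 4688 genes (31.2%) differed, of which 1782 (11.9%) were higher and 2906 (19.3%) lower in 4T1. The split depended on scaling. The median change of all genes was -0.08, and with arrays centred on their median gene level 2582 genes were higher and 2392 lower. At a change of 2-fold or more, 749 genes (4.99%) were higher and 1020 (6.79%) lower. In 1754 of these 1769 genes the levels of the lines did not overlap, and over all genes tested this held for 6911 (46%).

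Some of the largest differences were in genes at background in one of the lines. Tmprss11e, which encodes a transmembrane serine protease, had levels of 11.04, 10.77 and 11.13 in 4T1 tumours, against 4.77, 4.52 and 4.67 in 168FARN tumours. The 168FARN arrays were all at background, so the gene was at least 59.7-fold higher in 4T1 (adjusted p = 8.04e-07). Hhip, a decoy that binds hedgehog ligands at the cell surface, had levels of 10.28, 10.13 and 9.91 in 4T1 tumours, against 3.80, 4.01 and 4.07 in 168FARN tumours. It was at least 32.6-fold higher (adjusted p = 1.29e-09), again with 168FARN at background. Both genes were high in 4T07 tumours as well, where Tmprss11e averaged 9.11 and Hhip 9.35, and at background in 67NR tumours. The receptor tyrosine kinase gene Epha1 (9.25 ± 0.22 in 4T1, 4.90 ± 0.21 in 168FARN) and Fermt1, which encodes the kindlin that activates integrins in epithelia (8.50 ± 0.22 in 4T1, 4.44 ± 0.28 in 168FARN), behaved alike (SD, n = 3 each), at least 17.98-fold and 10.7-fold higher. In all, 120 of the 749 genes that were 2-fold or more higher in 4T1 had 168FARN at background.

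Among genes above background in both lines, the imprinted RNA H19 was furthest up. It had levels of 12.79, 12.71 and 12.54 in 4T1 tumours, against 6.40, 7.69 and 8.15 in 168FARN tumours, a change of 5.27 on the log2 scale (SE 0.45, adjusted p = 1.92e-06). Every 4T1 array exceeded every 168FARN array by more than 4 log2 units. Its imprinted neighbour Igf2, a growth factor, went the other way. Igf2 had levels of 6.02, 5.54 and 6.14 in 4T1 tumours, against 12.87, 10.90 and 11.14 in 168FARN tumours (log2 change -5.74, SE 0.40, adjusted p = 3.28e-07). The groups again lay far apart, with the first 168FARN array the highest. In 67NR tumours H19 averaged 6.42 and Igf2 7.29, so neither was high there.

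Further genes were above background in both lines and far higher in 4T1. Gpa33, a cell surface antigen of intestinal epithelium, averaged 10.92 ± 0.11 in 4T1 and 5.96 ± 0.48 in 168FARN. Npnt, the matrix protein nephronectin, averaged 10.19 ± 0.18 in 4T1 and 5.72 ± 0.08 in 168FARN. Tns4, which encodes a tensin of focal adhesions, averaged 10.47 ± 0.26 in 4T1 and 6.16 ± 0.30 in 168FARN (SD, n = 3 each, as throughout). The secreted protein gene Wfdc2 (log2 change 4.58), the glycosyltransferase gene Galnt3 (4.52) and the transmembrane glycoprotein gene Cdcp1 (4.06) were higher by similar amounts. For these genes, no overlap between the lines was a condition of the choice.

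Ogn led the genes that were lower in 4T1. Ogn, an extracellular proteoglycan, had levels of 5.06, 4.73 and 5.49 in 4T1 tumours, against 11.16, 12.10 and 11.91 in 168FARN tumours, a log2 change of -6.63 (SE 0.30, adjusted p = 8.25e-09). That left 4T1 at the edge of background while 168FARN was high on every array. Its relative Aspn changed by -4.75, the methyltransferase gene Inmt by -5.79 and the lipocalin gene Apod by -4.30. Dkk2, a secreted modulator of Wnt receptors, averaged 5.88 ± 0.35 in 4T1 and 11.17 ± 0.44 in 168FARN. Vegfd, a growth factor for lymphatic endothelium, averaged 6.05 ± 0.16 in 4T1 and 10.18 ± 0.38 in 168FARN, and the alarmin Il33 averaged 7.75 ± 0.14 in 4T1 and 11.73 ± 0.39 in 168FARN. Gpnmb, a glycoprotein of melanosomes and phagocytes, averaged 7.62 ± 0.49 in 4T1 and 12.18 ± 0.37 in 168FARN.

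Some genes were at background in 4T1 and well above it in 168FARN. Sox2, a transcription factor of pluripotent and neural progenitor cells, had levels of 2.91, 3.20 and 3.24 in 4T1 tumours, against 8.53, 8.65 and 9.15 in 168FARN tumours. The neighbouring genes Dppa2 and Dppa4, which encode chromatin factors of early embryonic cells, averaged 4.02 ± 0.14 and 3.71 ± 0.69 in 4T1, against 8.90 ± 0.12 and 8.68 ± 0.01 in 168FARN. All 3 genes were thus at background in 4T1, and they were at background in 4T07 and 67NR too. As bounds, Sox2 was at least 13.0-fold, Dppa2 at least 14.1-fold and Dppa4 at least 12.1-fold lower in 4T1. Of the 1020 genes that were 2-fold or more lower in 4T1, 160 had 4T1 at background. The growth factor Fgf10, which in development drives branching of epithelia, was among them, with levels of 4.68, 4.91 and 4.74 in 4T1 tumours, against 9.25, 9.40 and 9.17 in 168FARN tumours (at least 18.3-fold lower).

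**Figure D1:**
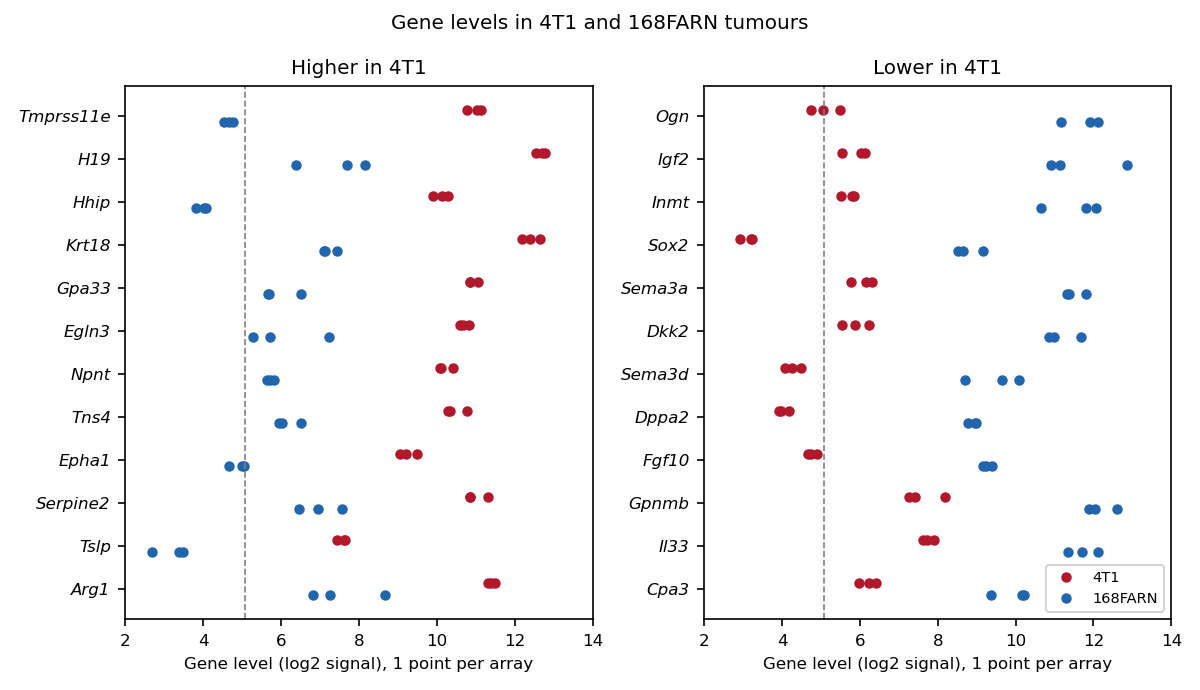
Levels (log2 signal) of 12 genes higher and 12 genes lower in 4T1, with 1 point per array, 4T1 arrays in red above 168FARN arrays in blue, and background (5.08) as a dashed line. For every gene shown the 3 points of one line lie apart from the 3 of the other, which was a condition for genes named as the largest changes. Tmprss11e, Hhip and Tslp in 168FARN and Sox2, Sema3d, Dppa2 and Fgf10 in 4T1 lie left of the dashed line.

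Epithelial genes were higher in 4T1 as a group. Of 41 measured genes of junctions and keratins, 29 were higher (70.7%) and 2 lower (4.88%), beside 11.9% higher and 19.3% lower over all genes. The median change of the list was 1.74, against -0.08 for all genes. Its mean level was 7.84, 7.94 and 8.06 on the 4T1 arrays, against 6.26, 6.24 and 6.31 on the 168FARN arrays, so no array of one line reached the other. With the first 168FARN array alone in place of 3, 23 members were still higher and 1 was lower.

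Krt18, a keratin of simple epithelia, had levels of 12.39, 12.18 and 12.65 in 4T1 tumours, against 7.44, 7.09 and 7.12 in 168FARN tumours (log2 change 5.19, SE 0.40, adjusted p = 8.53e-07). Epcam, an adhesion molecule of epithelial cells, had levels of 10.21, 10.19 and 10.68 in 4T1 tumours, against 6.99, 7.31 and 6.73 in 168FARN tumours (3.35, SE 0.51, adjusted p = 0.000273). Cdh1, which encodes E-cadherin of adherens junctions, had levels of 8.51, 8.84 and 9.11 in 4T1 tumours, against 6.59, 6.45 and 6.74 in 168FARN tumours (2.23, SE 0.25, adjusted p = 2.43e-05). The 3 genes were separate between the lines on every array, as were 46% of all genes tested. The desmosomal and junctional plakoglobin gene Jup changed by 3.14 and the protease inhibitor genes Spint1 and Spint2, which restrain matriptase, by 3.41 and 3.77. Grhl2, a transcription factor of epithelia, was at least 6.15-fold and Esrp1, a splicing factor of epithelia, at least 6.83-fold higher in 4T1, both with 168FARN at background. The 2 exceptions were Tjp1 (log2 change -0.84), a scaffold of tight junctions that many cell types use, and Cldn1 (-1.25), a tight junction claudin. The Cldn1 call was lost with the first 168FARN array as the only one (-0.60, adjusted p = 0.353).

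The promoters of Krt18 and Epcam are shown because E-boxes, short sites to which the repressors Zeb1 and Snai2 are known to bind, lie in both. RefSeq gives each as a window that begins upstream of the gene's start and ends just after it, on GRCm38.p6: Krt18 at chr15:102027966-102028265 (plus strand) and Epcam at chr17:87635729-87636028 (plus strand). Capitals mark CACCTG or, where the match is on the other strand, its reverse complement, and no match overlaps the other motifs searched here.
Krt18: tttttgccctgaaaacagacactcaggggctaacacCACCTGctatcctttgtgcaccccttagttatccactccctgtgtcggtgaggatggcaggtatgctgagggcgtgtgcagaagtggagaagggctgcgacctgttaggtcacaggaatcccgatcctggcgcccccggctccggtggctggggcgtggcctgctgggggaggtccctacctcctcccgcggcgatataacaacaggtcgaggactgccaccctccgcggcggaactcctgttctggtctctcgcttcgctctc
Epcam: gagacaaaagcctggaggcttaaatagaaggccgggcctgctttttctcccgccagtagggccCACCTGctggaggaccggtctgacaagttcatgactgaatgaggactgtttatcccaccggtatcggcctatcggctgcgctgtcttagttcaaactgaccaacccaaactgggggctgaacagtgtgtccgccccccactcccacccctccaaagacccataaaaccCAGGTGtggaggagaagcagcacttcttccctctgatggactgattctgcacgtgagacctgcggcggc
Of the list members with a promoter window, 17 of 22 (77.3%) held the motif in at least 1 window, and 13 of the 16 that were higher in 4T1 did. Over all tested genes with a window the share was 2671 of 12017 (22.2%), and over all 32851 windows it was 20.2%. A match describes the letters of the window alone.

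Regulators of the mesenchymal end were mixed as a list, with Snai2, Zeb1, Prrx1, Twist1 and Twist2 lower in 4T1. The shares over all genes were 11.9% higher and 19.3% lower. Of 25 measured mesenchymal genes and regulators, 7 were higher (28%) and 8 lower (32%) in 4T1, with a median change of 0.10; with 168FARN array 1 alone 3 were higher and 7 lower. Snai2, a repressor of E-cadherin, had levels of 5.91, 5.66 and 5.95 in 4T1 tumours, against 7.73, 8.40 and 8.18 in 168FARN tumours (log2 change -2.27, SE 0.18, adjusted p = 9.03e-07). Zeb1, a second such repressor, had levels of 6.83, 7.19 and 7.02 in 4T1 tumours, against 8.74, 8.27 and 8.42 in 168FARN tumours (-1.46, SE 0.17, adjusted p = 3.1e-05). The homeobox gene Prrx1 averaged 8.50 ± 0.18 in 4T1 and 11.67 ± 0.19 in 168FARN, and Twist1 and Twist2 each changed by -1.40. For these 5 genes the lines did not overlap, as was so for 46% of all genes tested. Not every such gene differed: Vim, an intermediate filament protein, averaged 13.39 in 4T1 and 13.29 in 168FARN (adjusted p = 0.569), Zeb2 averaged 10.22 in 4T1 and 9.98 in 168FARN (adjusted p = 0.339), and Snai1 averaged 8.24 in 4T1 and 8.22 in 168FARN (adjusted p = 0.953). Loxl2, a collagen crosslinking enzyme, led the members that were higher, at 1.72.

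**Figure D2:**
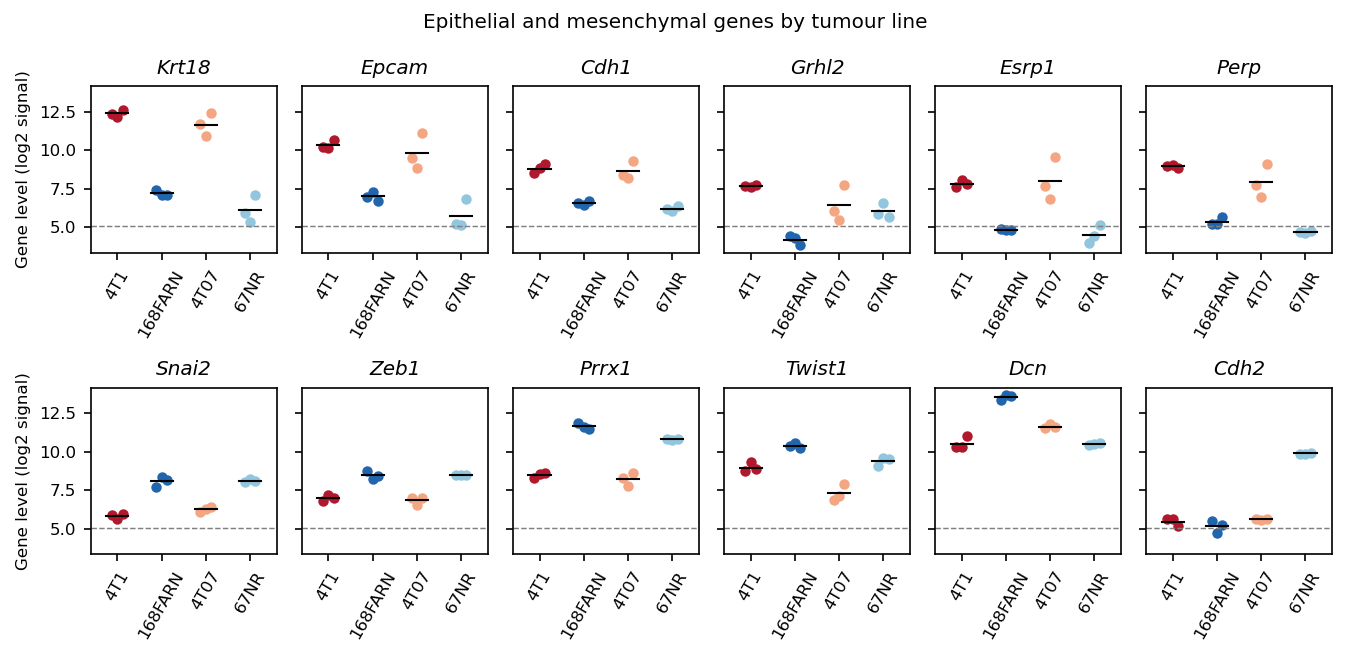
Levels (log2 signal) of 6 epithelial and 6 mesenchymal genes by line, with 1 point per array, black bars for means and background (5.08) as a dashed line. In 4T1 the top row is high and Snai2, Zeb1 and Prrx1 are low, in 168FARN the reverse, and 4T07 resembles 4T1 in most panels while Cdh2, near background in 4T1, 168FARN and 4T07, is high in 67NR. The genes shown were picked: of 25 measured in the mesenchymal list, 7 were higher and 8 lower in 4T1. Loxl2, which led the higher ones, is not shown.

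Fibroblast and matrix genes went in both directions. Of 18 measured fibroblast markers 6 were higher (33.3%) and 9 lower (50%) in 4T1, beside 11.9% higher and 19.3% lower over all genes. The list's mean level was 8.64, 8.67 and 8.97 on the 4T1 arrays, against 9.77, 9.57 and 9.57 on the 168FARN arrays. Dcn, the proteoglycan decorin, had levels of 10.29, 10.33 and 11.01 in 4T1 tumours, against 13.34, 13.69 and 13.61 in 168FARN tumours (log2 change -3.01, SE 0.19, adjusted p = 1.23e-07). Lum, the proteoglycan lumican, changed by -3.18 and Pdpn, a mucin-type membrane glycoprotein of stromal cells, by -3.58. In the opposite direction, the type I collagen genes were higher in 4T1. Col1a2 had levels of 10.95, 10.99 and 11.30 in 4T1 tumours, against 9.51, 8.93 and 9.67 in 168FARN tumours (1.71, SE 0.26, adjusted p = 0.000291), and Col1a1 changed by 1.30, a call lost with the first 168FARN array as the only one (0.99, adjusted p = 0.0742). Tnc, the matrix glycoprotein tenascin-C, averaged 10.77 ± 0.30 in 4T1 and 7.78 ± 0.48 in 168FARN, and Fbln2, a fibulin, changed by 2.27. Of 49 measured collagen and matrix assembly genes 19 were higher (38.8%) and 9 lower (18.4%), but with the first 168FARN array as the only one 7 were higher and 10 lower. Without 4T1 array 3 or 168FARN array 2, 12 were higher.

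Of 36 measured extracellular proteases and inhibitors, 14 were higher (38.9%) and 9 lower (25%) in 4T1, beside 11.9% higher and 19.3% lower over all genes. With 168FARN array 1 alone 8 were higher and 8 lower. Serpine2, a secreted inhibitor of thrombin and urokinase, had levels of 10.86, 11.31 and 10.86 in 4T1 tumours, against 6.95, 6.46 and 7.58 in 168FARN tumours (log2 change 4.02, SE 0.24, adjusted p = 9.95e-08). Mmp12, a metalloelastase that macrophages are known to secrete, had levels of 9.73, 10.46 and 9.82 in 4T1 tumours, against 7.75, 6.06 and 5.32 in 168FARN tumours (3.62, SE 0.59, adjusted p = 0.000438). Mmp13, a collagenase, had levels of 8.58, 9.10 and 9.32 in 4T1 tumours, against 7.08, 6.18 and 6.52 in 168FARN tumours (2.41, SE 0.31, adjusted p = 6.41e-05). All 3 were separate between the lines, as were 46% of all genes tested. The first 168FARN array was the highest of its group for both metalloproteinases. The gelatinase gene Mmp2 (-1.91) and Adamts1 (-2.85), a protease of proteoglycans, were lower in 4T1.

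Mmp12 and Mmp13 lie in a cluster of metalloproteinase genes on chromosome 9, which was looked at after their values were seen. Of 9 cluster genes measured, 6 were higher in 4T1 and 0 lower, beside 11.9% higher and 19.3% lower over all genes. The stromelysin genes Mmp3 and Mmp10 changed by 1.20 (adjusted p = 0.000487) and 1.07 (adjusted p = 0.0139). Mmp8, a collagenase of neutrophils that was at background in 168FARN, was at least 1.74-fold higher (adjusted p = 0.0221), and Mmp1a, counted among the 6, was at background in both lines. The Mmp10 call was lost without the first 4T1 array, the first 168FARN array or the second 168FARN array, with adjusted p between 0.0507 and 0.0515. The Mmp8 call was lost without array 2 or array 3 of either line, with adjusted p between 0.0509 and 0.0992, and with the first 168FARN array as the only one (0.584).

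The promoters of 4 genes of this cluster are shown because each holds 1 site of the form TGANTCA, bound by AP-1, the Fos and Jun dimer known to drive metalloproteinase genes. RefSeq places them on the plus strand of GRCm38.p6, Mmp13 at chr9:7272264-7272563, Mmp12 at chr9:7347124-7347423 (the first of its 2 windows that holds the site), Mmp3 at chr9:7445572-7445871 and Mmp10 at chr9:7502092-7502391. Capitals mark the site, which reads alike on both strands, and no match overlaps the other motifs.
Mmp13: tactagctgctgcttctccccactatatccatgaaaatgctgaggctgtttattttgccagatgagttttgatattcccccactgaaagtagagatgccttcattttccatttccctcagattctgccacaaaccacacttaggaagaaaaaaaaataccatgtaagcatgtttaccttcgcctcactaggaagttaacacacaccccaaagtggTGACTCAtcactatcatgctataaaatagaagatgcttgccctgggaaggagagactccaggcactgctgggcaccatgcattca
Mmp12: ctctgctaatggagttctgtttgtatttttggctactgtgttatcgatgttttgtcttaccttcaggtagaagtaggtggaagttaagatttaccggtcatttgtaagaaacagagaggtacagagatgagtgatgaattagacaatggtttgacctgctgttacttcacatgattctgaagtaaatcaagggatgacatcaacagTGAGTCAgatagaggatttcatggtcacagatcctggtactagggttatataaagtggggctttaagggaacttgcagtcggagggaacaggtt
Mmp3: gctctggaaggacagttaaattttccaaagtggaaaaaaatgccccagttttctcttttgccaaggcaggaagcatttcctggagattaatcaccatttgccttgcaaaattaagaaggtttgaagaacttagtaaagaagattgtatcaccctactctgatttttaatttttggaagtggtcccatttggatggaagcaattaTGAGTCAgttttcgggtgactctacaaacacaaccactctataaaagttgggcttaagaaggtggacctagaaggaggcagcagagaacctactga
Mmp10: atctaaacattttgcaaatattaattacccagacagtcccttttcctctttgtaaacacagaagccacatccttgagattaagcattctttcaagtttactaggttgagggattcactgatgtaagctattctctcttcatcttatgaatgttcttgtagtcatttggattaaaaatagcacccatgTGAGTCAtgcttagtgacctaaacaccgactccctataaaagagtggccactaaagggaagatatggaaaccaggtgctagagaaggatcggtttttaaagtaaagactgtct
Relative to the gene's start, where negative positions are upstream, the first base of the site lay at -35 in Mmp13, -44 in Mmp12, -46 in Mmp3 and -63 in Mmp10. Of the protease list, 9 of 26 genes with a window (34.6%) held the motif, and 6 of the 11 that were higher in 4T1. The share was 952 of 12017 (7.92%) over tested genes and 7.81% over all windows. The motifs were chosen after the values were seen.

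**Figure D3:**
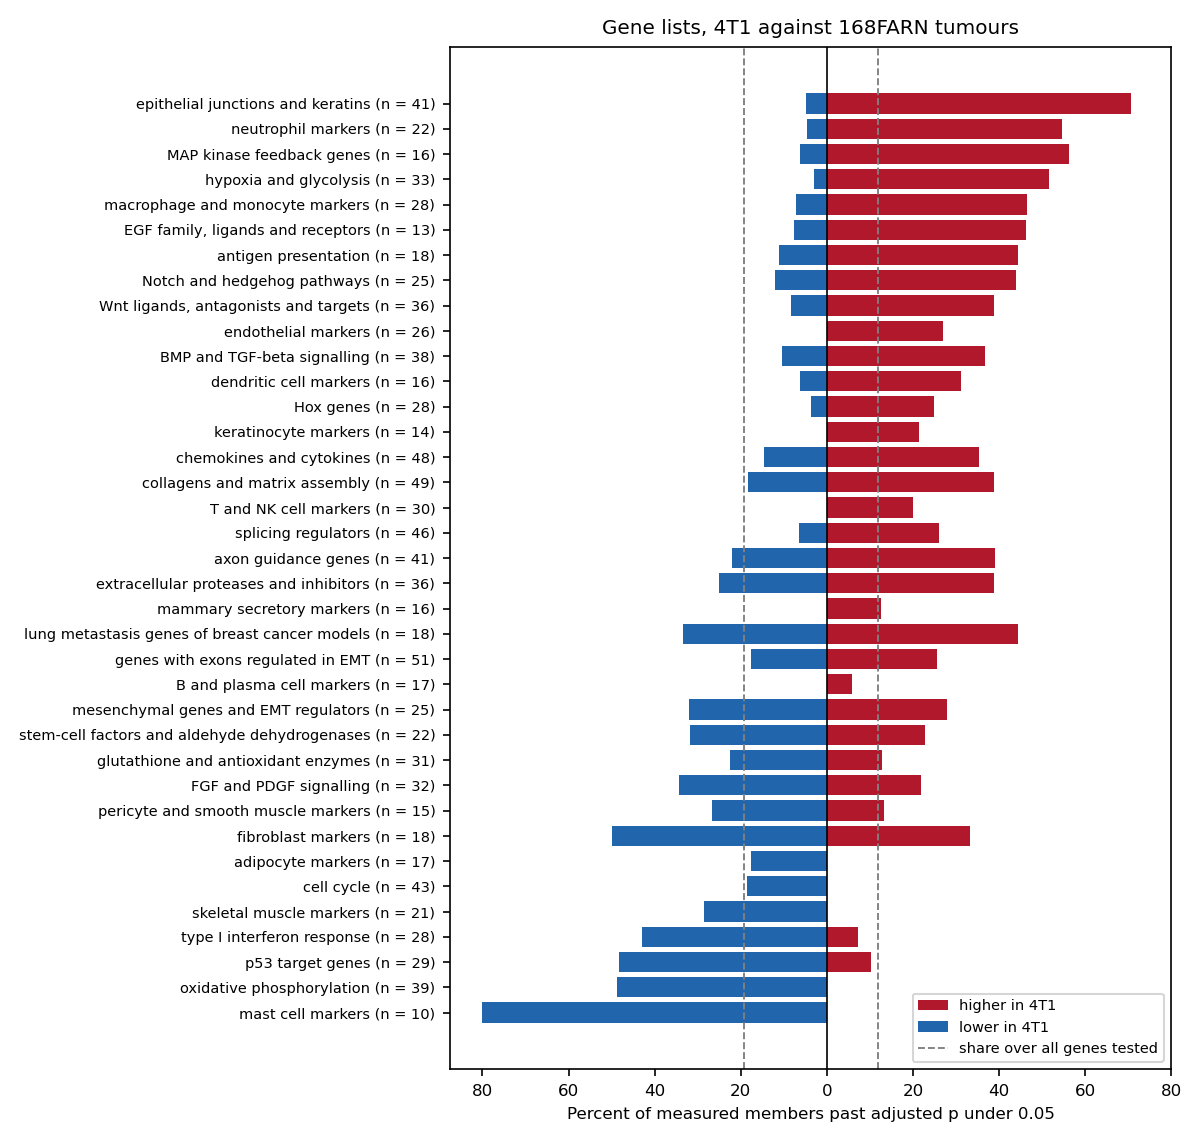
Share of measured members past the test in 37 gene lists with at least 10 measured members, red to the right for higher in 4T1 and blue to the left for lower, with dashed lines at the shares over all genes (11.9% higher, 19.3% lower). Epithelial genes reach 70.7% on the right, and mast cell markers reach 80% and oxidative phosphorylation genes 48.7% on the left.

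Leukocyte markers separated the tumours by cell type. Of 22 measured neutrophil markers 12 were higher (54.5%) and 1 lower in 4T1, beside 11.9% higher and 19.3% lower over all genes. The list means were 7.70, 7.98 and 7.69 on the 4T1 arrays, against 6.93, 6.51 and 6.59 on the 168FARN arrays. Lcn2, a siderophore-binding protein of neutrophil granules that epithelia also make, had levels of 12.04, 12.78 and 12.52 in 4T1 tumours, against 9.25, 8.20 and 8.48 in 168FARN tumours (log2 change 3.80, SE 0.38, adjusted p = 8.94e-06). Padi4, which citrullinates histones in neutrophils, averaged 10.30 ± 0.27 in 4T1 and 6.89 ± 0.84 in 168FARN. Ngp, a granule protein of immature neutrophils, averaged 6.41 ± 0.13 in 4T1 and 4.09 ± 0.52 in 168FARN, where it was at background. Csf3, the growth factor that mobilises neutrophils, had levels of 7.44, 7.62 and 7.28 in 4T1 tumours, against 4.98, 5.62 and 5.73 in 168FARN tumours (2.00, SE 0.21, adjusted p = 1.08e-05). The lines did not overlap for any of these 4 genes, beside 46% of all genes tested.

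Of 28 measured macrophage and monocyte markers, 13 were higher (46.4%) and 2 lower (7.14%), with a median change of 0.35. The count higher was 8 without 4T1 array 1, and 168FARN array 1 alone gave 6 higher and 1 lower. Arg1, the arginase that myeloid cells of tumours use to deplete arginine, had levels of 11.31, 11.40 and 11.51 in 4T1 tumours, against 8.66, 7.27 and 6.83 in 168FARN tumours (log2 change 3.82, SE 0.39, adjusted p = 1.02e-05). The 4T1 arrays were close together, and the first 168FARN array was the highest of its group. Of 18 antigen presentation genes 8 were higher (44.4%) and 2 lower (11.1%), or 8 and 0 with 168FARN array 1 alone, beside 11.9% higher and 19.3% lower over all genes. Among them, of 7 class II genes 6 were higher and 0 lower, among them the invariant chain gene Cd74, which averaged 12.11 ± 0.04 in 4T1 and 10.11 ± 0.09 in 168FARN, and its master regulator Ciita (1.48). Of 10 class I and immunoproteasome genes 1 was higher and 2 were lower. Of 30 T and NK cell markers 6 were higher (20%) and 0 lower. That count was 3 without 4T1 array 3 or 168FARN array 2, and 2 with 168FARN array 1 alone. The largest change was in Gata3 (2.47), which mammary luminal cells also express. B cell markers differed more within 4T1 than between the lines, with list means of 7.50, 5.99 and 7.50 on the 4T1 arrays, against 6.80, 6.23 and 6.34 on the 168FARN arrays.

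Mast cell markers were lower in 4T1 in 8 of 10 measured genes (80%), beside 19.3% of all genes, and 0 were higher. With 168FARN array 1 alone 5 were lower, and the list's median change was -1.34, against -1.42 with all 3. Cpa3, the carboxypeptidase of mast cell granules, had levels of 6.23, 6.41 and 5.99 in 4T1 tumours, against 9.37, 10.16 and 10.21 in 168FARN tumours (log2 change -3.70, SE 0.33, adjusted p = 2.58e-06). The tryptase gene Tpsab1 averaged 7.89 ± 0.46 in 4T1 and 10.90 ± 0.22 in 168FARN. Mrgprb1, a receptor of connective tissue mast cells, averaged 3.39 ± 0.39 in 4T1, within background, and 6.89 ± 0.66 in 168FARN, at least 3.51-fold lower. The list's mean level was 5.49, 5.82 and 5.32 on the 4T1 arrays, against 6.96, 7.18 and 7.47 on the 168FARN arrays, with 5.69 in 4T07 and 7.37 in 67NR.

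Among chemokines and cytokines, 17 of 48 measured were higher (35.4%) and 7 lower (14.6%) in 4T1, beside 11.9% higher and 19.3% lower over all genes. Tslp, a cytokine of epithelia, had levels of 7.43, 7.64 and 7.62 in 4T1 tumours, against 3.38, 3.48 and 2.70 in 168FARN tumours, at least 5.58-fold higher (adjusted p = 7.13e-08). In 4T07 Tslp averaged 10.80, above 4T1 by 3.24 on the log2 scale. Il1a, an interleukin released by damaged epithelium, had levels of 7.32, 7.81 and 6.79 in 4T1 tumours, against 3.26, 3.88 and 3.76 in 168FARN tumours, at least 4.68-fold higher (adjusted p = 7.79e-07), and its relative Il1b changed by 1.99. Both Tslp and Il1a were at background on all 168FARN arrays. The monocyte attractant Ccl2 averaged 7.63 ± 0.26 in 4T1 and 9.91 ± 0.66 in 168FARN, and the neutrophil attractant Cxcl5 averaged 5.99 ± 0.30 in 4T1 and 8.55 ± 0.48 in 168FARN.

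Growth factor genes differed in the levels of their ligands. The list counts here stand beside 11.9% higher and 19.3% lower over all genes. Tgfa, a ligand of the EGF receptor, had levels of 8.90, 9.07 and 9.06 in 4T1 tumours, against 5.92, 5.68 and 5.48 in 168FARN tumours (log2 change 3.31, SE 0.18, adjusted p = 3.2e-08), while Ereg, another ligand, changed by -1.72. In the EGF family 6 of 13 measured genes were higher (46.2%) and 1 lower (7.69%), or 3 and 1 with 168FARN array 1 alone. Of 16 feedback genes of MAP kinase signalling, 9 were higher (56.2%) and 1 lower (6.25%), led by the phosphatase gene Dusp4 (2.93) and the inhibitor gene Spry1 (2.83). Of 32 FGF, PDGF and IGF genes, 7 were higher (21.9%) and 11 lower (34.4%), or 3 and 12 with 168FARN array 1 alone. Fgf7, which like Fgf10 acts on epithelia, averaged 6.18 ± 0.12 in 4T1 and 9.38 ± 0.81 in 168FARN. Their receptor gene Fgfr2 averaged 10.04 ± 0.09 in 4T1 and 8.45 ± 0.51 in 168FARN (1.59, SE 0.22, adjusted p = 0.000123), and the related receptor gene Fgfr1 averaged 8.66 ± 0.20 in 4T1 and 10.34 ± 0.32 in 168FARN (-1.68, SE 0.20, adjusted p = 3.09e-05).

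In the BMP and TGF-beta pathway 14 of 38 measured genes were higher (36.8%) and 4 lower (10.5%), beside 11.9% higher and 19.3% lower over all genes. The ligand gene Bmp7 had levels of 9.71, 9.66 and 8.98 in 4T1 tumours, against 6.46, 6.96 and 6.14 in 168FARN tumours (log2 change 2.93, SE 0.35, adjusted p = 3.29e-05), and Grem1, a secreted BMP antagonist, averaged 7.44 ± 0.44 in 4T1 and 10.66 ± 0.53 in 168FARN. Neither gene overlapped between the lines, beside 46% of all genes tested. In the Wnt pathway 14 of 36 were higher (38.9%) and 3 lower (8.33%). The count higher was 9 without 168FARN array 3 and 8 with 168FARN array 1 alone. Notum, an enzyme that inactivates Wnt ligands, was at least 6.25-fold higher in 4T1, and Axin2, a feedback target of Wnt signalling, averaged 5.61 ± 0.05 in 4T1 and 7.25 ± 0.21 in 168FARN. Of 25 Notch and hedgehog genes 11 were higher (44%) and 3 lower (12%), a count of 6 or 7 higher without 4T1 array 1 or 2 or without 168FARN array 2 or 3, and of 6 with 168FARN array 1 alone.

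Axon guidance genes, many of which also steer tumour and endothelial cells, were called in both directions, with 16 of 41 measured higher (39%) and 9 lower (22%). The shares over all genes were 11.9% higher and 19.3% lower. Class 3 semaphorins, secreted ligands of plexins and neuropilins, were split. Sema3a had levels of 6.15, 5.76 and 6.30 in 4T1 tumours, against 11.33, 11.38 and 11.80 in 168FARN tumours (log2 change -5.43, SE 0.18, adjusted p = 7.33e-10). Sema3c was at least 22.5-fold and Sema3d at least 21.2-fold lower in 4T1, where both were at background. Sema3f (2.42) and Sema3e (at least 2.95-fold, with 168FARN at background) were higher, as was the plexin gene Plxnb1 (2.82), a receptor of a class 4 semaphorin. Of 28 measured Hox genes in the list 7 were higher (25%) and 1 lower (3.57%), with a median change of 0.11. Of the 9 measured genes of the Hoxa cluster on chromosome 6, 1 of which is not in that list, 7 were higher in 4T1 and 0 lower, from 0.76 for Hoxa10 to 2.29 for Hoxa5; the cluster was looked at after its values were seen.

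Hypoxia and glycolysis genes were higher in 17 of 33 measured (51.5%) and lower in 1 (3.03%), beside 11.9% higher and 19.3% lower over all genes. Egln3, an oxygen sensor that marks HIF for degradation and is itself a HIF target, had levels of 10.60, 10.84 and 10.66 in 4T1 tumours, against 7.23, 5.73 and 5.28 in 168FARN tumours (log2 change 4.62, SE 0.35, adjusted p = 7.79e-07). Car9, a carbonic anhydrase induced by hypoxia, had levels of 9.71, 10.27 and 9.62 in 4T1 tumours, against 8.86, 7.79 and 6.67 in 168FARN tumours (2.10, SE 0.39, adjusted p = 0.00125). Both were highest in the first array of 168FARN, which still lay under every 4T1 array. The glycolytic enzyme gene Aldoc averaged 9.55 ± 0.07 in 4T1 and 6.64 ± 0.12 in 168FARN, and the lactate exporter gene Slc16a3 averaged 10.09 ± 0.18 in 4T1 and 7.97 ± 0.48 in 168FARN. With the first 168FARN array as the only one, 7 genes of the list were higher and 0 lower, and its median change was 0.24, against 0.47 with all 3.

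The promoters of Egln3 and Car9 are shown for the core ACGTG of the hypoxia response element, the site of HIF. RefSeq gives Egln3 at chr12:54203825-54204124 (minus strand) and Car9 at chr4:43506776-43507075 (plus strand) on GRCm38.p6. Capitals mark the core or its reverse complement, 1 match in each, with no overlap with the other motifs.
Egln3: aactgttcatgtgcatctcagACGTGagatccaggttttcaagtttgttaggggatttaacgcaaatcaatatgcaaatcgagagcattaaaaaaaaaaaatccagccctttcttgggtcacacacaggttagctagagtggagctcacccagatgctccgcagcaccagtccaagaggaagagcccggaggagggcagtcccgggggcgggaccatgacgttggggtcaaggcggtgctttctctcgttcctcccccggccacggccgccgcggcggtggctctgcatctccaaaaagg
Car9: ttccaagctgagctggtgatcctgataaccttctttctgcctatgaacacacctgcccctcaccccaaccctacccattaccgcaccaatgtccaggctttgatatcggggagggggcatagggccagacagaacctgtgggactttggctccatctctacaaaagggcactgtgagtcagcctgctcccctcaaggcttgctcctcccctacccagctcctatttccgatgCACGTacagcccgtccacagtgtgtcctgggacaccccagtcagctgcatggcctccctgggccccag
In the list 20 of 29 genes with a window (69%) held the core, and 10 of the 15 that were higher in 4T1. Among tested genes 3149 of 12017 (26.2%) did, and 19.6% of all windows. The share was thus no larger among the members higher in 4T1 than in the whole list, which was made of hypoxia and glycolysis genes. A match describes only the letters of the window.

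Nuclear genes of oxidative phosphorylation were lower in 19 of 39 measured (48.7%) and higher in 0, beside 19.3% lower and 11.9% higher over all genes. Ndufa9, a subunit of complex I, had levels of 9.27, 9.15 and 9.19 in 4T1 tumours, against 10.22, 10.48 and 10.49 in 168FARN tumours (log2 change -1.20, SE 0.15, adjusted p = 6.58e-05). The list's mean level was 9.25, 9.27 and 9.23 on the 4T1 arrays, against 9.57, 9.78 and 9.83 on the 168FARN arrays, and its median change was -0.51. Of 21 skeletal muscle markers 6 were lower and 0 higher, a count of 20 lower without 168FARN array 1 and of 0 to 3 without any other single array. The muscle list mean was 5.99, 5.75 and 5.93 on the 4T1 arrays, against 5.60, 7.59 and 8.42 on the 168FARN arrays, so muscle genes were high on 168FARN arrays 2 and 3 and not on array 1. Pygm, the muscle glycogen phosphorylase gene, had levels of 6.17, 6.03 and 5.83 in 4T1 tumours, against 6.38, 8.34 and 9.51 in 168FARN tumours (-2.06, SE 0.60, adjusted p = 0.018). The Pygm call was lost without 4T1 array 3 (adjusted p = 0.0551), 168FARN array 2 (0.0617) or 168FARN array 3 (0.0747). With the first 168FARN array as the only one, 0 of 21 muscle markers and 4 of 39 oxidative phosphorylation genes were lower, with list medians of 0.24 and -0.30, beside 1417 of 15025 genes. The part of muscle RNA in the oxidative phosphorylation result beyond that was not tested.

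Interferon response genes were lower in 12 of 28 measured (42.9%) and higher in 2 (7.14%), with a median change of -0.53. The shares over all genes were 19.3% lower and 11.9% higher. Ifit2, an antiviral protein, had levels of 7.38, 7.53 and 7.27 in 4T1 tumours, against 8.42, 9.24 and 8.78 in 168FARN tumours (log2 change -1.42, SE 0.19, adjusted p = 0.000108), and Oas2, which makes the activator of RNase L, averaged 6.87 ± 0.06 in 4T1 and 8.07 ± 0.35 in 168FARN. The list's mean level was 8.26, 8.47 and 8.57 on the 4T1 arrays, against 8.49, 9.13 and 9.07 on the 168FARN arrays, and the first 168FARN array lay among the 4T1 arrays. With it as the only 168FARN array 2 genes were lower and 1 higher, and the median was -0.13. The median change of all genes was -0.04 with that array as the only 168FARN array. Without 168FARN array 3 or 4T1 array 1, 7 genes of the interferon list were lower.

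Target genes of p53 were lower in 14 of 29 measured (48.3%) and higher in 3 (10.3%). Cdkn1a, the inhibitor of cyclin-dependent kinases also known as p21, had levels of 8.61, 9.16 and 8.50 in 4T1 tumours, against 10.81, 10.61 and 9.79 in 168FARN tumours (log2 change -1.64, SE 0.24, adjusted p = 0.000201). Mdm2, the ligase that degrades p53, had levels of 8.57, 8.78 and 8.64 in 4T1 tumours, against 9.92, 9.78 and 9.89 in 168FARN tumours (-1.21, SE 0.16, adjusted p = 0.000102). Eda2r, a receptor gene, averaged 4.37 ± 0.39 in 4T1, within background, and 7.94 ± 0.30 in 168FARN. The member that was furthest up was Perp (3.59), which is also a desmosomal protein of epithelia. The list's mean level was 7.44, 7.57 and 7.39 on the 4T1 arrays, against 7.92, 7.88 and 8.01 on the 168FARN arrays, and 11 members were lower and 1 higher with the first 168FARN array as the only one. Of 43 cell cycle genes 8 were lower (18.6%) and 0 higher, beside 19.3% and 11.9% over all genes. The count lower was 5 without 4T1 array 2, 4T1 array 3 or 168FARN array 3, and 3 with 168FARN array 1 alone.

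**Figure D4:**
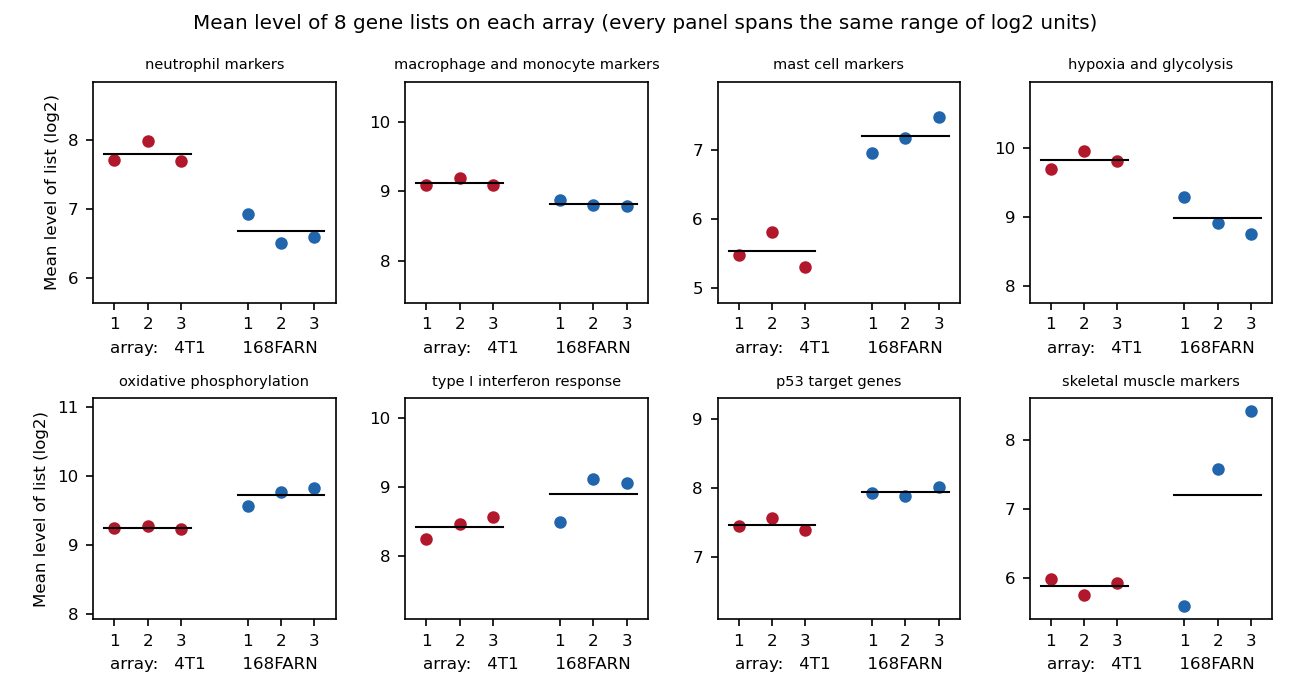
Mean level (log2) of 8 gene lists on each array, 4T1 arrays left in red and 168FARN arrays right in blue, with black bars for group means and the same span of log2 units in every panel. Neutrophil, mast cell, hypoxia and p53 target lists keep the lines apart on all arrays, the first 168FARN array joins 4T1 for the interferon list, and the muscle list is high on 168FARN arrays 2 and 3 alone.

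Fewer genes differed between 4T1 and 4T07, whose cells reach the lung without visible nodules. Against 4T07, 83 genes were higher (0.552%) and 274 lower (1.82%) in 4T1. Of the genes that differed 2-fold or more from 168FARN, 18 higher and 86 lower genes also differed 2-fold or more from 4T07 in the same direction; both comparisons share the 4T1 arrays. Bmp7, at 9.45 ± 0.41 in 4T1 and 6.84 in 4T07, was among them, as were H19 (12.68 ± 0.13 in 4T1, 10.68 in 4T07) and the eosinophil attractant gene Ccl24 (8.70 ± 0.37 in 4T1, 7.28 in 4T07). Tiam1, an activator of the GTPase Rac, averaged 8.27 ± 0.21 in 4T1, 7.26 in 4T07 and 5.79 ± 0.16 in 168FARN. Uox, the urate oxidase gene, averaged 7.83 ± 0.06 in 4T1, 6.22 in 4T07 and 3.71 ± 0.34 in 168FARN, the last within background. Of the lower genes, Inmt averaged 5.72 ± 0.18 in 4T1, 9.33 in 4T07 and 11.51 ± 0.76 in 168FARN, and Gpnmb averaged 9.81 in 4T07, between its levels in 4T1 and 168FARN.

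Single probesets were compared with the other probesets of their gene, so that a change that all of them share cancels. Of 110320 probesets in 7349 genes, 1388 (1.26%) had an adjusted p under 0.05 in limma's diffSplice and a relative change of at least 1, in 873 genes (11.9%). In 4T1, 710 were higher (0.644%) and 678 lower (0.615%) than their gene predicted. In diffSplice the spread is pooled over the probesets of a gene, as if probesets of the same arrays were independent, so its p-values can be too small. A splicing index, with a spread for each probeset that is moderated towards a value shared by all probesets, called 752. Both tests called 622. In 345 of the 1388 the probeset's own signal changed by less than 0.5 while its gene changed by at least 1. Igf2 is such a case, where probeset 4506045 read 7.98, 7.79 and 7.54 in 4T1 tumours, against 7.90, 8.12 and 8.14 in 168FARN tumours, although the gene differed by 5.74. The same held for the largest changes in Grem1, Cadm1, Masp1, 1110051M20Rik, Moxd1 and Serinc2. It also held in Lad1, Ace, Fzd6, B3gnt3, Pogk and Tnnt2 (probeset 4602772), all among the 10 largest per direction. It did not hold for those of Fgfr2, Cd44, Dmrta2, Apod, Plet1 and Tnnt2 probeset 5601572. In 223 probesets the signal itself changed by 1 or more in a gene that changed by less than 0.5.

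Fgfr2 had the largest relative change of any probeset called lower. Its transcripts are known to include one or the other of 2 exons for an immunoglobulin-like domain, one used in epithelial and the other in mesenchymal cells, a choice that Esrp1 and Esrp2 are known to direct. Of 24 probesets tested in Fgfr2, 7 were called. Probeset 5177161 read 2.54, 3.06 and 2.77 in 4T1 tumours, against 8.64, 7.12 and 8.93 in 168FARN tumours (relative change -6.56, SE 0.28, adjusted p = 1.12e-54, and 5.34e-07 by the splicing index). Probeset 5179865 read 3.89, 3.87 and 3.72 in 4T1 tumours, against 8.94, 7.61 and 8.88 in 168FARN tumours (relative change -5.75). Both were at background on every 4T1 array while the gene as a whole was higher in 4T1.

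In the other direction, Fgfr2 probeset 5026159 read 10.64, 10.62 and 10.52 in 4T1 tumours, against 6.97, 6.67 and 6.42 in 168FARN tumours (relative change 3.19, adjusted p = 1.75e-19, and 0.00665 by the splicing index), and probeset 5355690 read 9.99, 10.22 and 10.11 in 4T1 tumours, against 7.05, 6.99 and 6.65 in 168FARN tumours. In 4T07 the 4 probesets averaged 4.21, 3.97, 10.62 and 10.06, and in 67NR 7.49, 7.55, 5.89 and 6.62. The 4T07 values thus lay with 4T1 and the 67NR values with 168FARN. The calls of Fgfr2 probesets 4748828 and 5229738 were lost under the splicing index (adjusted p = 0.38 and 0.114). Which exon each probeset covers was not analysed here.

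Splicing factors of epithelia differed in the same samples. Of 46 measured splicing regulators 12 were higher (26.1%) and 3 lower (6.52%) in 4T1, beside 11.9% higher and 19.3% lower over all genes. The higher ones were led by Esrp1, Rbm47 (9.49 ± 0.09 in 4T1, 7.32 ± 0.11 in 168FARN) and Esrp2 (7.02 ± 0.13 in 4T1, 5.56 ± 0.15 in 168FARN), all of which bind RNA in epithelial cells. Without 4T1 array 2 or 168FARN array 2, 7 were higher, and with 168FARN array 1 alone 7 were higher and 0 lower.

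Cd44, a receptor for hyaluronan whose variable exons are known to be skipped in mesenchymal cells, had 3 of 19 probesets called, all higher in 4T1. Probeset 4712893 read 8.38, 8.22 and 8.42 in 4T1 tumours, against 4.07, 4.81 and 4.34 in 168FARN tumours, where it was at background (relative change 3.07, SE 0.33, adjusted p = 1.33e-13, and 0.00268 by the splicing index). The other Cd44 probesets did not pass by the splicing index (adjusted p = 0.0855 and 0.0975). Fn1, the gene of fibronectin, which has exons that are included or skipped by cell type, averaged 13.39 in 4T1 and 13.43 in 168FARN. Yet its probeset 5201971, 1 called of 54, read 10.10, 9.87 and 9.95 in 4T1 tumours, against 12.45, 11.50 and 12.45 in 168FARN tumours. The relative change was -2.09 (pooled SE 0.13, adjusted p = 7.89e-44 by diffSplice, and 0.000916 by the splicing index). Relative to the gene, this probeset's own SD was 0.16 in 4T1 and 0.49 in 168FARN. Dmrta2, a transcription factor gene, averaged 8.27 in 4T1 and 7.83 in 168FARN, while probeset 5596969 read 8.22, 8.10 and 8.16 in 4T1 tumours, against 4.39, 3.03 and 3.11 in 168FARN tumours (relative change 4.04). In each of these probesets, taken relative to the gene, the lines did not overlap, which held for 1231 of the 1388 called probesets.

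Smaller changes were called in genes whose level hardly differed. A probeset of Map3k7, a kinase of TGF-beta signalling, read 9.13, 9.10 and 9.03 in 4T1 tumours, against 7.76, 7.78 and 7.99 in 168FARN tumours (relative change 1.37), and 1 of Rai14, an actin-binding protein, read 8.84, 9.01 and 9.08 in 4T1 tumours, against 7.73, 7.32 and 7.57 in 168FARN tumours (1.28). A probeset of Clstn1, a calsyntenin of membrane transport, read 8.88, 8.66 and 8.64 in 4T1 tumours, against 9.85, 9.63 and 9.53 in 168FARN tumours (-1.10). All 3 passed by the splicing index too (adjusted p = 0.00193, 0.0198 and 0.0357).

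**Figure D5:**
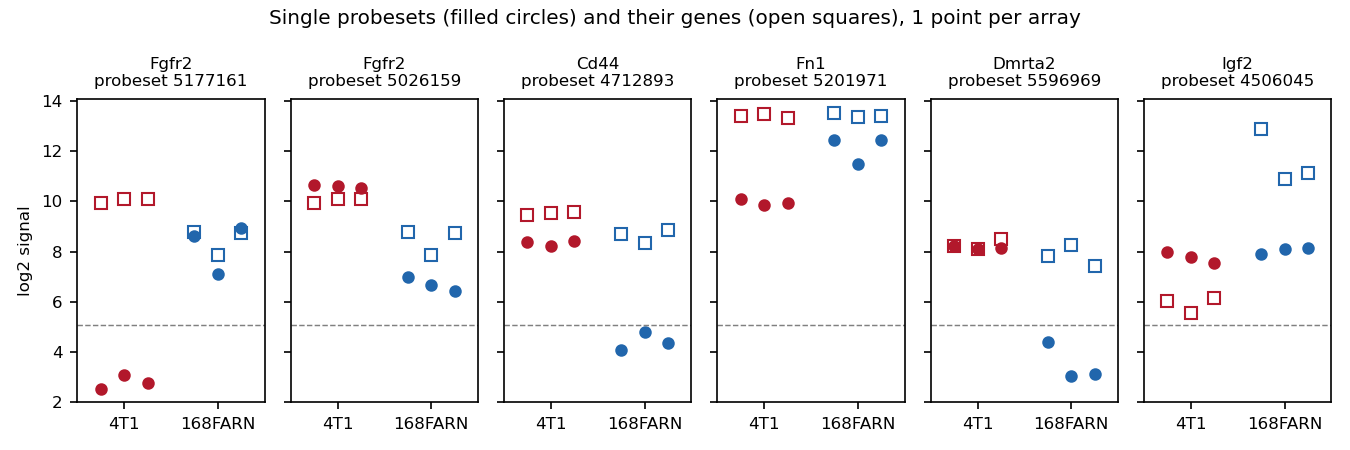
Signal (log2) of 6 single probesets (filled circles) and the level of their gene (open squares), 1 point per array, 4T1 in red on the left and 168FARN in blue on the right, with background (5.08) dashed. The circles of Fgfr2, Cd44, Fn1 and Dmrta2 change between the lines against a smaller or opposite change of the squares, whereas the circles of Igf2 stay level while its squares move.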

How the data were processed

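Each array had a log2 signal per probeset as deposited by the authors, the scale being read from the range of the values; the authors' summarization and normalization were not stated in the labels, and no further scaling was applied. Signals of all 12 arrays entered, with array medians between 7.21 and 7.57, and precision is limited by the number of arrays. Probesets with 1 gene symbol in the platform annotation (207232 of 228090; 3882 had several and 16976 none) were kept and symbols brought up to date with RefSeq genes of GRCm38.p6. Gene levels were medians over at least 3 probesets. The test was limma's (version 3.58.1, lmFit and eBayes, under R 4.3.3 with the package data.table, version 1.17.8), fitted to all 12 arrays with a mean per line and no covariate, with Benjamini-Hochberg adjustment over 15025 genes, called at an adjusted p under 0.05. Background was the 95th percentile of olfactory receptor gene levels. Probesets above the 25th percentile, in genes above the 50th percentile with at least 4 such probesets, were tested with diffSplice. The scripts were tested on simulated data.

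The 39 gene lists and the rule for named genes were chosen with earlier results of these data known. The rule took the 14 largest changes in each direction above background in both lines, the 8 highest in each direction with one line at background, up to 4 called members per list and direction (where fewer than 2 were called, the first 2), the 10 largest probeset changes per direction, every called probeset of genes with exons regulated in the epithelial to mesenchymal transition, and the 8 largest changes per direction shared with the 4T07 comparison. The genes and probesets described in the text were picked from these, and many that the rule took are not described. The first 2 of these sets were drawn from called genes with a change of at least 2-fold and no overlap between the lines. Car9, Cdh1, Cdh2, Csf3, Epcam, Hoxa10, Il1b, Jup, Mdm2, Mmp1a, Mmp3, Mmp8, Mmp10, Snai1, Twist1, Twist2, Vim and Zeb2 were chosen after their values were seen. Alternatives were the 6 arrays alone, 2 other scalings, the mean of probesets, other probeset minimums and filters, another prior, a replicate block, a splicing index and leaving out each array.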

Additional observations from a re-analysis of the deposited data

How the results depend on the processing

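Across the alternatives with all 6 arrays (these arrays alone, 2 other scalings, the mean of probesets, 1 or 6 probesets as minimum, a background filter, an intensity trend with a robust prior), gene calls stayed between 4431 and 5494, beside 4688. Leaving out 1 array gave 3661 to 4384 gene calls, 1376 to 1631 higher, 2210 to 2829 lower, 708 to 786 that were 2-fold or more higher and 971 to 1156 lower, 70 to 105 genes that also differed from 4T07, and 1127 to 1681 exon probesets. As an alternative chosen after seeing the data, for the muscle RNA on the other arrays, the first 168FARN array was used as the only one, assumed to vary like the other groups. Then 2470 genes were called, 1053 higher and 1417 lower, of which 2284 were among the 4688, and 732 and 935 were 2-fold or more higher and lower. The muscle gene Pvalb reversed there, at 0.23 (adjusted p = 0.726), and 812 exon probesets were called. Exon calls were 752 with the splicing index. With probesets above the 50th percentile 754 were called, but only 721 of the 1388 main calls were tested there, and 654 of these kept the call. When genes changed by 0.5 or more were left out 306 were called, with 338 of the main calls tested and 306 kept. Other causes of these moves were not tested. Deviations of same-numbered arrays of the 2 lines correlated at -0.003 to 0.018, which gives no sign of pairing but cannot show whether such arrays were processed together. A replicate block gave 4877 gene calls, 1440 exon calls and 107 genes that also differed from 4T07. With quantile scaling 2322 genes were higher and 2837 lower. Of 256 called genes that the rule took or that were chosen after their values were seen, 236 kept the call under every setting with all 6 arrays and 197 under every setting.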
